A study of Mus musculus with 2 samples.

Results

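The genes described here encode 46 enzymes and complex subunits that add or remove acetyl and methyl groups on histones, measured in erythroblasts of the mouse, cells that still have a nucleus and mature into red blood cells. They were 16 deacetylases, 8 acetyltransferases, 4 genes of Polycomb repressive complex 2, 10 other methyltransferases and 8 demethylases. The list was given by gene symbol and not by measured values, though earlier results of these data were known when it was chosen. All 46 symbols were matched by gene identifier to the deposited tables, among 43346 Ensembl genes and 21461 protein-coding genes outside the mitochondrial genome.

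Acetyltransferases neutralise lysines in histone tails, which loosens chromatin and recruits bromodomain proteins, and deacetylases reverse the reaction. Methyltransferases mark lysines for either activity or silencing, depending on the residue, and demethylases of the flavin-dependent and Jumonji types remove these marks. As an erythroblast matures, its chromatin condenses, most genes are silenced and the nucleus is finally expelled. Histone deacetylation is known to take part in that condensation.

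Primary erythroblasts came from adult male mice of the C57BL/6J strain at 5 to 6 weeks of age, and their total RNA was sequenced after removal of ribosomal RNA, from 100 ng per library with a ScriptSeq kit. The 2 libraries form 1 group and are labelled biological replicates; they have separate biosample records but share 1 donor record, and the health state is listed as unknown. Nothing in them shows separate animals, so the spread between the libraries may be partly technical. A single group allows no contrast between conditions, and no p-value is given. Values are listed per library as replicates 1 and 2, or as mean ± SD with n = 2.

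Replicate 1 held 37312624 expected counts, which are estimated read counts that need not be whole, and replicate 2 held 22464724. The 46 genes took 79344 and 45488 of them, or 0.213% and 0.202%. A count of 0 allows up to 3 counts, which is 0.0804 and 0.134 CPM. All 12 erythroid markers checked, among them the globin genes, Slc4a1 and Gata1, were detected, and their levels summed to 406076 and 348378 on the coding scale defined in the next paragraph. All 12 neutrophil precursor markers were detected too, with sums of 20697 and 20184, and so were 7 of 9 monocyte and macrophage markers, with sums of 270 and 243. Detection was rarer for megakaryocytes, at 2 of 6 markers, for B cells, at 1 of 5 (Ighm), and for T and NK cells, at 1 of 6 (Nkg7). Cd3d and Cd8a had 0 counts in both libraries. The part that RNA of these other cells took in the levels below was not tested. In such bulk RNA, fewer cells of a type and less RNA per cell cannot be told apart.

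TPM is the share that a feature takes of all RNA features after correction for length. Protein-coding genes held 11.3% of TPM in replicate 1 and 6.89% in replicate 2, so levels are given as coding-scaled TPM, in which the 21461 genes of each library sum to 1000000. A gene was called detected where its deposited TPM reached 1 in each library. That limit corresponds to 8.89 coding-scaled TPM in replicate 1 and 14.5 in replicate 2, and is therefore stricter in replicate 2.

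By this limit 25 of the 46 genes were detected, or 54.3%. Of all 21461 coding genes 4360 were detected, or 20.3%, and of the 12895 coding genes with a TPM above 0 in either library 33.8% were. The median of the 46 genes was 18.2 and 21.9 coding-scaled TPM, a mean of 20.0 ± 2.64, against 7.02 and 6.96, a mean of 6.99 ± 0.0409, for those 12895 genes. In both libraries 30 of the 46 lay above the median of the 12895 genes. Together the 46 genes summed to 1674 ± 91.7 coding-scaled TPM, which is 0.167% of the coding total.

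By coding-scaled TPM the list was led by the same 5 genes in both libraries, each above the 90th percentile of the 12895. In order of mean level these were Ezh1, Ep300, Ezh2, Kdm5a and Kdm2a. Ezh1 was highest and Ep300 next in both libraries, while Ezh2 and Kdm5a changed places between the libraries and did not differ beyond their spread. The places of Kdm5a and Kdm2a depended on the measure. With only protein-coding transcripts and those of no annotated class, their mean levels were 38.1 and 43.4. Crebbp at 66.9 and Kdm4a at 59.5 were then above both. By counts per base of the longest transcript they were 60.8 and 66.1, below Crebbp at 87.3 and Kdm4a at 71.4. Ezh1, Ep300 and Ezh2 stayed highest, in that order, by both measures. At the other end, mean levels were 0.363 coding-scaled TPM for Sirt3, 1.23 for Kdm6b and 1.37 for Hdac11. The plot of levels by library sets out all 46 genes by family.

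**Figure D1:**
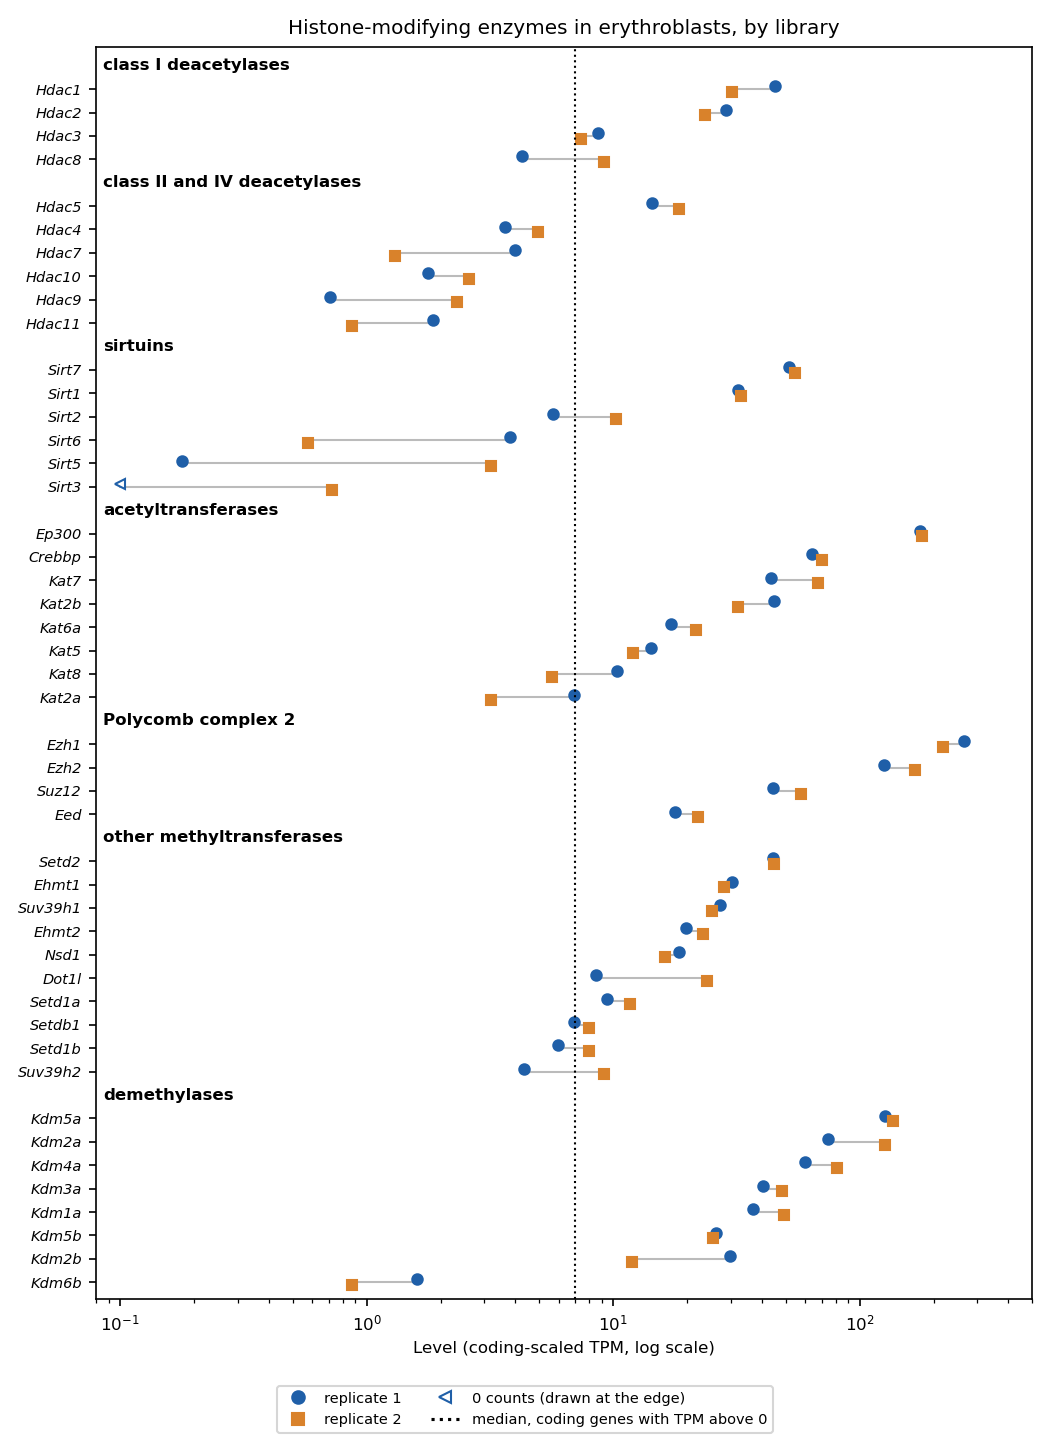
Level of each of the 46 genes in coding-scaled TPM on a log axis, with circles for replicate 1, squares for replicate 2, a line joining the 2 libraries and genes grouped by family. The dotted line marks the median of the 12895 coding genes with TPM above 0 (6.99), and the open triangle is Sirt3 with 0 counts in replicate 1. All 4 Polycomb genes lie right of the line, while 5 of the 6 class II and IV deacetylases lie left of it.

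Among the 8 acetyltransferases, 5 were detected (Ep300, Crebbp, Kat7, Kat2b and Kat6a), and the family median was 28.7 ± 2.53 coding-scaled TPM. Ep300 encodes p300, a co-activator that acetylates histones at enhancers and works with GATA1 in red cell precursors. It lies at chr15:81585351-81652077 on the plus strand of GRCm38 and had 176 and 178 coding-scaled TPM, from 11787 and 6615 counts. Crebbp encodes the related co-activator CBP, lies at chr16:4081328-4213997 on the minus strand and had 64.2 and 70.3 coding-scaled TPM. Both genes differed little between the libraries, and together they held 14.6% ± 0.443 of the summed level of the 46 genes.

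Kat7, the catalytic subunit of HBO1 complexes that acetylate histones around replication origins, had 43.8 and 68.0 coding-scaled TPM. Its counts ran the other way, with 1786 in replicate 1 and 779 in replicate 2, a log2 ratio of 0.32 after scaling. The effective length assigned to the gene was 1.81-fold longer in replicate 1, which lowers TPM for a given count. Kat2b, or PCAF, had 44.8 and 32.1, and Kat6a, or MOZ, which is known for its role in blood stem cells, had 17.1 and 21.8.

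The 3 acetyltransferases under the limit were Kat5 (TIP60), Kat8 (MOF) and Kat2a (GCN5). Kat5 had 14.2 and 12.04 coding-scaled TPM and missed the limit in replicate 2 only. Kat8, which acetylates histone H4, had 10.4 and 5.66 and also missed it in replicate 2 only. Kat2a, the catalytic subunit of SAGA and ATAC complexes, was lowest of the family at 6.93 and 3.19.

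Deacetylases were lower than acetyltransferases by summed level and by family median. The levels of all 16 summed to 205 ± 2.49 coding-scaled TPM, against 385 ± 9.83 for the 8 acetyltransferases, so that acetyltransferase transcripts exceeded deacetylase transcripts 1.83- and 1.93-fold. This ratio of sums is a ratio of transcript levels and says nothing of enzyme amounts or activity. Ep300 alone took 176 and 178 of the acetyltransferase sums of 378 and 391, and the deacetylase sums were 207 and 203. By these values the summed levels without Ep300 would be about equal, so the excess in the sum rested on that gene. By family median, acetyltransferases at 28.7 stood above class I deacetylases at 17.6, class II and IV at 2.61 and sirtuins at 5.75.

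Class I deacetylases are mainly nuclear, and HDAC1, HDAC2 and HDAC3 supply the catalytic core of the NuRD, Sin3, CoREST and NCoR complexes. Hdac1 had 45.5 and 30.3 coding-scaled TPM and Hdac2 had 28.8 and 23.6, so both were detected and both were higher in replicate 1. Hdac3, the NCoR-bound enzyme, was below the limit at 8.71 and 7.40. Hdac8 had 4.27 and 9.14, the lowest of the class in replicate 1 but not in replicate 2, where Hdac3 was lower.

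Class II enzymes shuttle between nucleus and cytoplasm, and Hdac11 is the class IV enzyme. Only Hdac5, a class IIa enzyme whose place in the cell is set by phosphorylation, was detected among these 6, at 14.3 and 18.4 coding-scaled TPM. The class IIa gene Hdac4 had 3.64 and 4.93, Hdac7 had 4.00 and 1.31, and Hdac9 had 0.711 and 2.32. The class IIb gene Hdac10 had 1.78 and 2.61, and Hdac11 had 1.87 and 0.870. The median of the 6 was 2.61 ± 0.204 coding-scaled TPM, below that of the 12895 coding genes, and 5 of the 6 were below the limit in both libraries.

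Sirtuins are deacylases that use NAD. Sirt7, which deacetylates histones and is enriched in nucleoli, led the family with 51.6 and 54.7 coding-scaled TPM and lies at chr11:120618372-120625240 on the minus strand. In GENCODE release M21 its transcripts share 124 exonic bases on the same strand with Mafg. Mafg had 5879 and 3340 counts against 1137 and 683 for Sirt7. The posterior SD of the Sirt7 count, a deposited measure of its uncertainty, was 0 in both libraries. What part of the level came from the shared bases was not tested. Sirt1, the best studied nuclear sirtuin, had 32.0 and 32.9. Both levels were nearly the same in the 2 libraries.

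The other 4 sirtuins were below the limit. The mainly cytoplasmic Sirt2 had 5.69 and 10.3 coding-scaled TPM, and the nuclear Sirt6 had 3.82 and 0.580, from 47 and 8 counts. The mitochondrial Sirt5 had 0.178 and 3.19, from 3 and 30 counts. The mitochondrial Sirt3 had 0 and 0.725, from 0 and 5 counts, the lowest in replicate 1 but above Sirt6 in replicate 2. Counts this small fix neither gene's level well.

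Polycomb repressive complex 2 adds silencing methyl groups to histone H3 through EZH1 or EZH2, with EED and SUZ12 as core partners. All 4 genes were detected and the family had the highest median, 98.7 ± 19.4 coding-scaled TPM. Ezh1, at chr11:101191115-101226463 on the minus strand, had 265 and 218 coding-scaled TPM from 8536 and 4291 counts. Ezh2, at chr6:47530139-47595341 on the minus strand, had 126 and 167 from 2444 and 1798 counts. Ezh1 was higher in replicate 1 and Ezh2 in replicate 2, yet Ezh1 stood above Ezh2 in both. These 2 catalytic genes held 23.2% ± 1.49 of the summed level of the 46 genes.

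The partners were lower. Suz12, which holds the complex together, had 44.3 and 57.7 coding-scaled TPM, and Eed, which reads the silencing mark, had 17.9 and 22.0. The summed level of Ezh1 and Ezh2 was therefore well above that of either partner in each library.

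Of the 10 other methyltransferases 5 were detected, with a family median of 16.8 ± 4.08 coding-scaled TPM. Setd2, which marks the bodies of transcribed genes, was highest at 44.6 and 45.1, from 5530 and 2863 counts. Of the G9a-type silencing enzymes, Ehmt1 had 30.4 and 28.1 and Ehmt2 had 19.8 and 23.2. Suv39h1, an enzyme of constitutive heterochromatin, stood between them at 27.1 and 25.2, and Nsd1, which marks broad active and intergenic regions, had 18.5 and 16.2. Each of these 5 genes differed by less than 1.25-fold in level between the libraries.

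The other 5 were below the limit. Dot1l, which methylates the core of histone H3 and is needed for normal erythroid development in mouse embryos, had 8.53 and 23.9 coding-scaled TPM and passed it in replicate 2 only. Setd1a, a catalytic subunit of COMPASS complexes at active promoters, had 9.42 and 11.7 and passed it in replicate 1 only. Its relative Setd1b had 5.95 and 7.98.

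Setdb1, the enzyme that silences retroviral elements with KAP1, had 6.93 and 7.98 coding-scaled TPM. Suv39h2 had 4.35 and 9.14, the lowest of the family in replicate 1, while Setd1b and Setdb1 were lower in replicate 2. Neither gene reached the limit in either library.

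Of the 8 demethylases 6 were detected, with a family median of 43.7 ± 7.26 coding-scaled TPM. Kdm5a, which removes methyl groups linked to active promoters, led by TPM at 127 and 136, from 5896 and 3932 counts. It lies at chr6:120364124-120444574 and shares 251 exonic bases with Ccdc77 on the opposite strand, a gene with 6502 and 3527 counts. Whether counting used strand is not stated, and the origin of reads in the shared stretch was not tested. The posterior SD of the Kdm5a count was 0 in both libraries. Kdm2a, a CpG-island-binding demethylase, had 74.1 and 127, and Kdm4a, a Jumonji demethylase, had 60.1 and 80.8. All 3 were higher in replicate 2. By the other measures given above, Kdm4a stood above both Kdm5a and Kdm2a.

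Kdm3a, which removes silencing methyl groups from histone H3, had 40.4 and 48.4 coding-scaled TPM. Kdm1a, or LSD1, the flavin-dependent enzyme that GFI1B recruits in erythroid cells, had 36.8 and 49.3. Kdm5b, the relative of Kdm5a, had 26.2 and 25.4.

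The 2 demethylases under the limit were Kdm2b and Kdm6b. Kdm6b, or JMJD3, which removes the Polycomb mark, was lowest at 1.60 and 0.870 coding-scaled TPM, from 155 and 43 counts. Kdm2b had 29.9 and 11.9 coding-scaled TPM, and its deposited TPM of 3.36 and 0.82 was 4.10-fold apart. Its counts of 458 and 258.49 gave a log2 ratio of only -0.05 after scaling. The short transcript Kdm2b-211 of 464 bases held 54.84% of the gene's TPM from 68.2 counts in replicate 1 and 0% in replicate 2. The effective length assigned to the gene was 2.77-fold longer in replicate 2. The part of effective length and of read number in the difference in TPM was not tested.

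A set of 10 pairs of related enzymes or complex partners was then compared within each library, where library scaling cancels. The order by TPM was the same in both libraries for all 10. By the mean of both libraries, the widest steps were between Kat2a and Kat2b, with log2 ratios of -2.69 and -3.33, between Kdm5b and Kdm5a, at -2.28 and -2.43, and between Kdm2b and Kdm2a, at -1.31 and -3.42. Suv39h1 exceeded Suv39h2 by 2.64 and 1.47 on the log2 scale. In each of these pairs the same gene led in both libraries, but the size of the step depended on the measure. With protein-coding transcripts only, a measure that also kept transcripts of no annotated class, Kdm5b over Kdm5a was -0.60 and -1.10. The Kdm5a side of that ratio rested on its unclassed transcript of 10969 bases. Kdm2b over Kdm2a was -1.31 and -1.79. Kat2a over Kat2b was then -0.98 in replicate 1, with no value in replicate 2. Suv39h1 over Suv39h2 was wider by that measure, at 4.47 and 2.10.

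Ezh2 over Ezh1 gave log2 ratios of -1.08 and -0.38, a mean of -0.73 ± 0.49, so that Ezh1 was 2.11- and 1.31-fold above Ezh2. Ezh1 also led by counts without length correction, with log2 ratios of -1.80 and -1.25, and by counts per base of the longest transcript, at -1.14 and -0.59. Ep300 over Crebbp gave 1.46 and 1.34, a mean of 1.40 ± 0.08, and Eed over Suz12 gave -1.31 and -1.39. These 3 orders held under every level measure tried.

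The order was less certain for 3 pairs. Hdac1 over Hdac2 gave 0.66 and 0.36 and Setd1a over Setd1b gave 0.66 and 0.56, while Ehmt2 over Ehmt1 gave -0.62 and -0.28. For these 3 the deposited credibility intervals of TPM, whose level is not stated, were apart in replicate 1 and overlapped in replicate 2. Their order also depended on the measure. With protein-coding transcripts only, Hdac1 over Hdac2 was below 0 in both libraries, at -0.17 and -0.14. Setd1a over Setd1b kept its sign in replicate 1 under each measure, but in replicate 2 it was -0.73 by counts, -0.35 with protein-coding transcripts only and -0.49 by counts per base of the longest transcript. By that last measure Ehmt2 over Ehmt1 was 0.22 in replicate 1 and -0.20 in replicate 2.

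**Figure D2:**
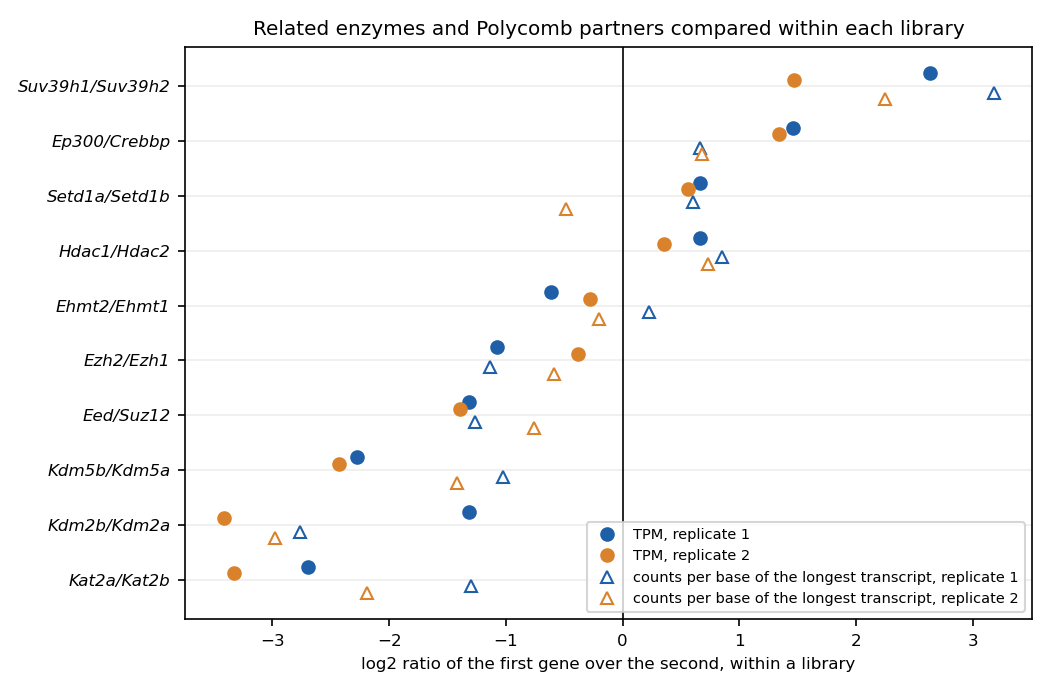
Log2 ratio of the first gene over the second within each library for the 10 pairs, by TPM (filled circles) and by counts per base of the longest transcript (open triangles), in blue for replicate 1 and orange for replicate 2. By TPM both circles of every pair lie on the same side of 0, while the triangles of Setd1a/Setd1b and Ehmt2/Ehmt1 lie on both sides.

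For every annotated transcript the tables list its percent of the TPM of its gene, and GENCODE release M21 gave the transcript classes. In the 25 detected genes, transcripts of noncoding classes (retained intron, processed transcript and the like) held a median of 20.1% and 25.5% of TPM, a mean of 22.8% ± 3.85. The same median over all 4360 detected coding genes was 2.30% ± 1.64. Part of that gap went with the number of annotated transcripts, whose median was 7 in the 25 genes and 4.5 in all detected genes. Among genes with at least 5 transcripts, the medians were 35.1% ± 1.35 for 18 of the 25 genes and 25.2% ± 2.98 for 2180 coding genes. By counts, which are not corrected for length, they were 16.9% ± 1.07 and 10.5% ± 1.28.

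Taken alone, retained-intron transcripts had a median share of 15.8% and 16.9% over the 25 genes, against 0% over all detected coding genes. That comparison was not matched for the number of annotated transcripts. All TPM was on coding transcripts in both libraries for 5 genes: Hdac2, Kat6a, Kdm3a, Nsd1 and Setd2. Of these, Nsd1 and Setd2 have 1 annotated transcript each in the tables. At the other extreme, noncoding classes held over 50% of TPM in both libraries for Sirt7, with 51.0% and 61.9%, for Kdm2a, with 55.5% and 68.5%, and for Kdm5a, with 78.1% and 71.2%. By counts the shares of Kdm2a were 29.98% and 36.6% and those of Kdm5a were 22.6% and 21.0%, while those of Sirt7 remained at 48.0% and 62.7%.

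**Figure D3:**
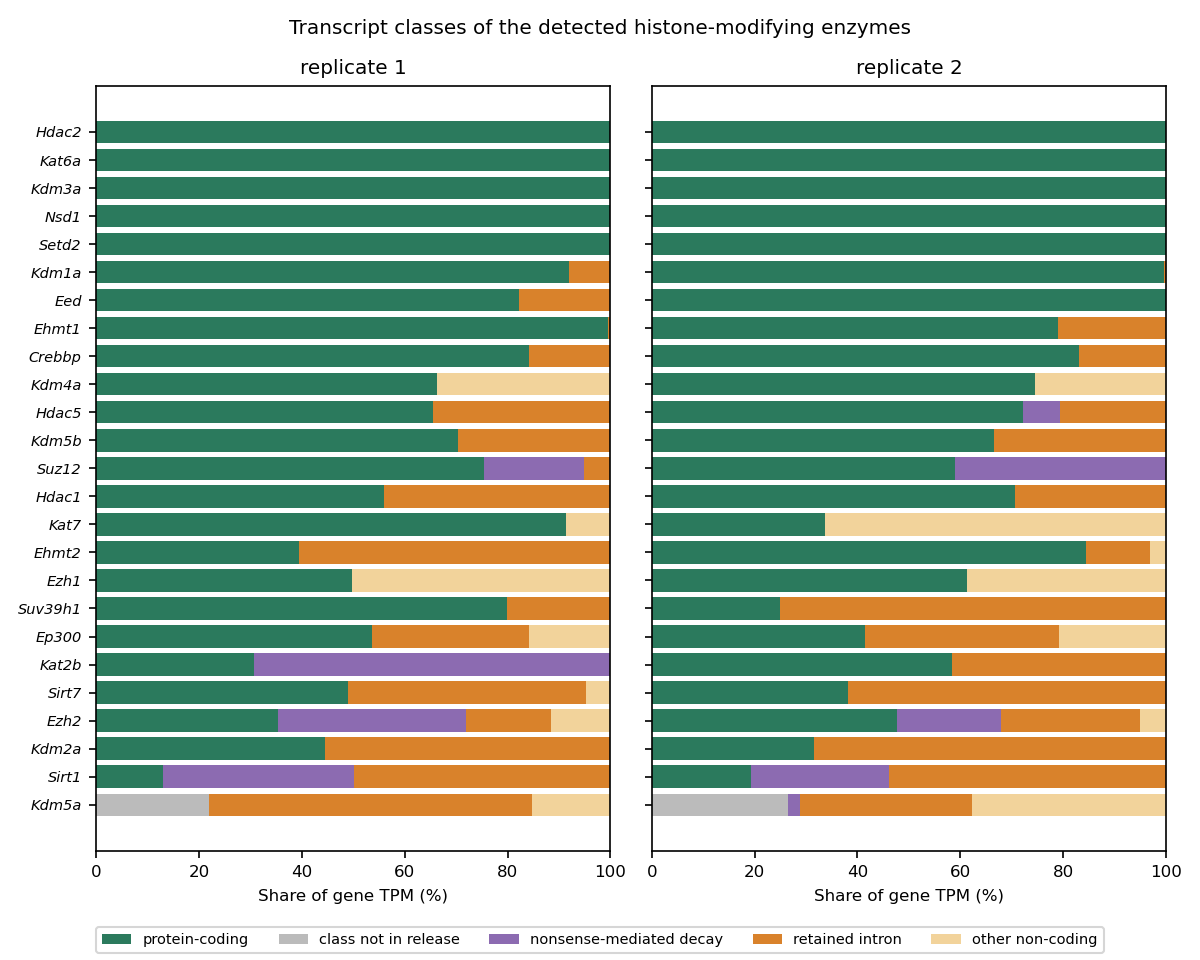
Percent of each detected gene's TPM held by transcript class in replicate 1 (left) and replicate 2 (right), with genes ordered by mean share on coding transcripts. Bars at the top, such as Hdac2 and Setd2, are wholly protein-coding in both libraries, while those of Sirt1, Kdm2a and Sirt7 are mostly nonsense-mediated decay or noncoding classes. The grey part of Kdm5a is its 10969-base transcript, which has no class in release M21.

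A single transcript held over 50% of TPM in both libraries for 9 of the 25 genes, or 36%, against 59.4% of detected coding genes. The top transcript was the same in both libraries for 13 of the 25, or 52%, against 74.6%. Neither comparison was matched for the number of annotated transcripts, which was larger in the 25 genes by median. Hdac2-201 held 99.07% and 98.8% of Hdac2, and Crebbp-201 held 84.24% and 83.12% of Crebbp. By contrast, Ep300-201, the full-length form of 8738 bases, held 38.21% and 39.36% of TPM, though 74.2% and 70.6% of counts. Ezh1-203 held 30.95% and 38.12% of TPM and 58.5% and 60.7% of counts. The leading Kdm1a transcript by TPM, Kdm1a-207, has only 751 bases, with 55.6% and 67.74% of TPM and 28.4% and 31.1% of counts.

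In 5 detected genes the transcript with the highest mean share was not protein-coding. Sirt1-205, annotated as a target of nonsense-mediated decay, held 37.29% and 26.86% of Sirt1 TPM and 61.2% and 46.1% of its counts. Kdm2a-209, a retained-intron form, held 29.67% and 20.65%. Suv39h1-205, also a retained-intron form, held 20.05% and 73.69%, while the coding Suv39h1-202 held 63.91% and 13.81%, so the leading form of Suv39h1 differed between the libraries.

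The 2 others rested on short transcripts. Kdm5a-205, a retained-intron form of 689 bases, held 47.6% and 17.59% of TPM but 7.79% and 2.54% of counts. Most Kdm5a counts, 77.3% and 77.0%, were on the transcript of 10969 bases that has no class in release M21. Kat2b-206, a nonsense-mediated decay form of 455 bases, held 69.38% of Kat2b TPM in replicate 1 and 0% in replicate 2. Most Kat2b counts in both libraries, 88.1% and 87.5%, were on the coding transcript Kat2b-201.

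Isoform shares of several other enzymes also differed between the libraries. Suz12-201, of 4373 bases, held 68.77% and 9.07% of Suz12 TPM, while the coding Suz12-206, of 4303 bases, held 6.65% and 49.96%. By assigned share the 2 coding forms thus traded places. Suz12 as a gene had nearly equal scaled counts in both libraries, a log2 ratio of 0.02. How well the reads told the 2 forms apart was not tested. Kat7-205 held 61.25% and 24.8% of Kat7 TPM, and noncoding classes held 8.64% and 66.3%. Ehmt1-214, of 671 bases, held 77.75% and 35.84% of Ehmt1 TPM but 26.3% and 9.47% of its counts, so the short form led by TPM and not by counts.

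Among the deacetylases Hdac1 was split between the coding Hdac1-201, with 56.01% and 70.61% of TPM, and retained-intron forms, with 44.0% and 29.4%. Of the Polycomb genes, Ezh2 had the lowest mean share on its leading transcript. Its coding Ezh2-202 held 23.32% and 36.58%, and the nonsense-mediated decay form Ezh2-209, of 666 bases, held 36.69% and 14.57%. Noncoding classes held 28.0% and 32.1% of Ezh2 and 50.2% and 38.7% of Ezh1. For Ezh1 these were short processed transcripts, and by counts their share was 10.8% and 7.46%, so Ezh1 reads were mostly on coding forms.

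In 9 detected genes 11 retained-intron transcripts held at least 10% of TPM in both libraries, and 5 of them contain an entire intron of a coding transcript. The unspliced 5′ splice sites of these 5 are printed to show which intron each form keeps. Each line gives 30 coding exon bases and 30 intron bases from the GENCODE transcript sequence, 5′ to 3′ on the gene's strand, and capitals mark the first 2 intron bases.
Ep300-204: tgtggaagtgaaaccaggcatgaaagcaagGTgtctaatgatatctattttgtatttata
Crebbp-202: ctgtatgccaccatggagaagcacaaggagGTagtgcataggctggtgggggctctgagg
Sirt7-209: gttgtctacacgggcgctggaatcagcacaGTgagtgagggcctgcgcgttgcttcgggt
Ezh2-207: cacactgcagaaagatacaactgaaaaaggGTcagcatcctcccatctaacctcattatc
Suv39h1-205: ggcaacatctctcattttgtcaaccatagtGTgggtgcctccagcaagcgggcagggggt

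On GRCm38 these windows are chr15:81639862-81639921 on the plus strand for Ep300, chr16:4088214-4088273 on the minus strand for Crebbp and chr11:120624460-120624519 on the minus strand for Sirt7. They are chr6:47542336-47542395 for Ezh2 and chrX:8063881-8063940 for Suv39h1, both on the minus strand. All 5 introns begin with GT, the usual start of a vertebrate intron. The introns are short, at 103 bases in Ep300, 281 in Crebbp, 424 in Sirt7, 395 in Ezh2 and 85 in Suv39h1.

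Shares of these forms were close between the libraries in 3 of the 5 genes. Crebbp-202 held 15.76% and 16.88% of TPM, Ep300-204 held 12.02% and 14.56%, and Ezh2-207, which contains 3 whole introns, held 10.45% and 10.47%. Sirt7-209 held 13.49% and 29.22%, and Suv39h1-205 held the shares given above, so those 2 were higher in replicate 2. Total RNA includes unfinished transcripts, and the share of these reads that came from pre-mRNA still being spliced was not tested.

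The libraries were compared gene by gene with the log2 ratio of replicate 1 over replicate 2, from counts scaled with TMM factors. Only genes whose counts averaged 100 or more over the libraries were used, and the exact 95% interval of a ratio covers counting error alone. The libraries also differ in their labelled size range, 200 to 764 for replicate 1 and 138 to 1000 for replicate 2 with no unit given, and in the median bases by which effective length falls short of length in long genes, 190 and 152. The part of this difference in the ratios and in the shares of short transcripts was not tested. Of the 46 genes, 39 passed the minimum and 7 did not: Hdac9, Hdac10, Hdac11, Sirt3, Sirt5, Sirt6 and Kdm6b. At least 2-fold apart were 3 of the 39, or 7.69%, against 8.54% of 7658 coding genes (654 genes). By direction, 2 were higher in replicate 1, where 5.62% of coding genes were, and 1 was higher in replicate 2, where 2.93% were. The share in the list was thus near the background.

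Hdac7 had 186 and 37 counts, or 4.74 and 1.73 TMM-scaled CPM, a log2 ratio of 1.45 (0.94 to 2.00). The gene shares 29 exonic bases with Slc48a1, a gene with 6953 and 3337 counts on the opposite strand. Kat2a had 302 and 69 counts, or 7.69 and 3.23 TMM-scaled CPM, a log2 ratio of 1.25 (0.87 to 1.65). Hdac8 had 119 and 135 counts, or 3.03 and 6.32 TMM-scaled CPM, a log2 ratio of -1.06 (-1.43 to -0.69). Hdac7 and Kat2a were higher in replicate 1 and Hdac8 in replicate 2.

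All 3 had mean counts between 100 and 200 and were 3 of the 7 genes of the list in that class. Of 1691 coding genes in the same class, 23.1% were 2-fold apart. None of the 32 genes of the list with higher counts was 2-fold apart. Among coding genes the share was 8.59% at mean counts of 200 to 500 and 2.72% at 500 to 1000. It was 1.47% at 1000 to 2000, 0.567% at 2000 to 5000 and 1.08% at 5000 to 20000. Whether the list differed from coding genes within these classes was not tested. Just inside the 2-fold limit were Kat8 at 0.94 (0.52 to 1.37) and Dot1l at -0.86 (-1.01 to -0.70). Longer exonic overlaps with an expressed gene on the opposite strand were present in 4 genes. Kdm2b shares 627 bases with Rnf34, Kat5 shares 426 with Rnaseh2c, Sirt3 shares 418 with Ric8a and Suv39h2 shares 357 with Dclre1c. The posterior SD of the count was 1.8 and 6.07 for Kdm2b and 0 in both libraries for Kat5, Sirt3 and Suv39h2. An influence of these overlaps on the counts was not tested.

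The median ratio of the 39 genes was -0.03, with 18 above 0 and 21 below, and the median of the 7658 coding genes was 0.04. Of the 39 genes 30, or 76.9%, lay within 0.5 of 0, against 70.3% of coding genes. Of the 5 genes with the highest levels, Ep300 was at -0.04 and Ezh1 at 0.11, while Kdm2a was at -0.27 (-0.33 to -0.20), Kdm5a at -0.29 (-0.35 to -0.24) and Ezh2 at -0.44 (-0.52 to -0.35). The last 3 of these were higher in replicate 2. Kdm1a was at -0.58 (-0.76 to -0.41) and Kdm4a at -0.55 (-0.63 to -0.46), and both were also higher in replicate 2. The 12 neutrophil markers had a median ratio of 0.26 and 9 of them were higher in replicate 1. So were 8 of 12 erythroid markers, with a median of 0.16, and 8 of 9 monocyte and macrophage markers, also 0.16. Of coding genes 53.9% had a ratio above 0. The part of these differences in the ratios of the enzymes was not tested.

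**Figure D4:**
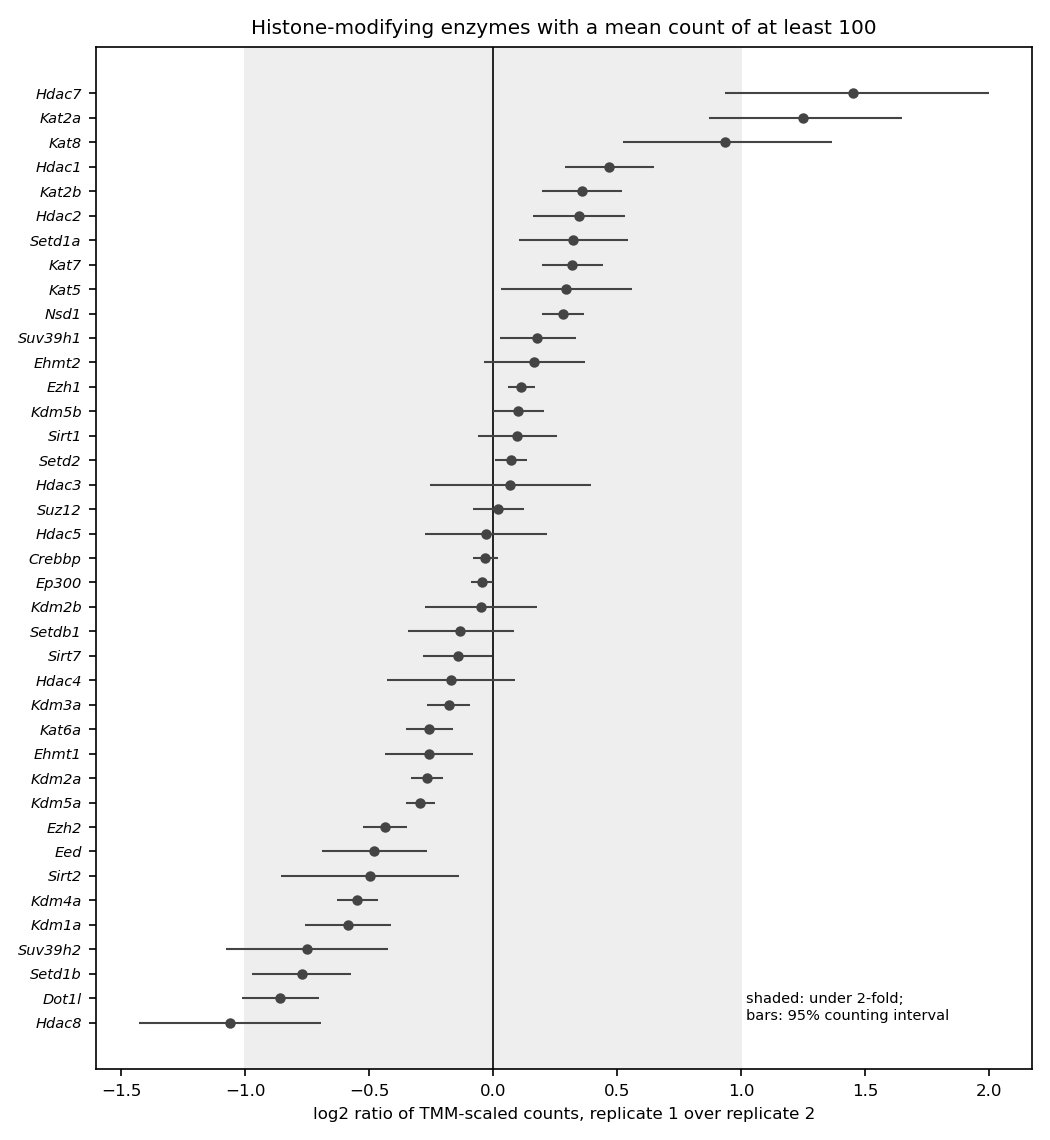
Log2 ratio of TMM-scaled counts, replicate 1 over replicate 2, for the 39 genes whose counts averaged 100 or more, with exact 95% counting intervals as bars. The shaded band is the range under 2-fold, and only Hdac7, Kat2a and Hdac8 have points outside it.

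Other genes of the same pathways were described from lists of complex partners. Of 10 genes of NuRD, which joins HDAC1 and HDAC2 to the CHD remodellers, 8 were detected, and the median was 41.4 ± 7.34 coding-scaled TPM. The highest by mean level were Rbbp4, a histone chaperone subunit, at 65.0 and 128, Chd4, the remodelling ATPase, at 75.4 and 109, and Mta3 at 71.2 and 55.0. Mta1 and Gatad2a were below the limit. Of 7 CoREST genes, which join LSD1 to HDAC1 and HDAC2, 4 were detected. Gfi1b, the erythroid repressor that recruits LSD1, had 27.3 and 55.7, Rcor3 had 11.4 and 43.1, and Hmg20b had 32.0 and 14.8. Rcor1 and Rcor2 were below the limit.

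Among 9 genes of the Sin3 and NCoR co-repressors, 5 were detected. The NCoR scaffold Ncor1 had 154 and 161 coding-scaled TPM, above every deacetylase, followed by Gps2 at 55.9 and 66.4 and Sin3a at 24.97 and 37.0. Sap18, Tbl1x and Tbl1xr1 were below the limit. Polycomb accessory genes stood lower than the core, with 1 of 5 detected and a median of 10.9 ± 0.523. Mtf2 was detected at 17.9 and 34.2, while Aebp2 at 26.3 and 12.3, Jarid2 at 10.6 and 11.3, Phf1 and Phf19 were below the limit.

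COMPASS subunits, which activate the SET1 and MLL methyltransferases, were detected in 7 of 8 cases. Hcfc1 had 50.2 and 48.0 coding-scaled TPM, Dpy30 had 30.03 and 43.2 and Ash2l had 21.8 and 22.6, and only Men1 was below the limit. Of 14 scaffold genes of acetyltransferase complexes 9 were detected. Ep400, the ATPase of the TIP60 complex, had 237 in both libraries, well above the 13.1 ± 1.54 of its catalytic partner Kat5. Msl2 had 49.8 and 51.3 and Ing4 had 40.1 and 30.9, while Tada2a, Tada2b, Tada3, Sgf29 and Ing5 were below the limit. Tada2a, Tada2b, Tada3 and Sgf29 belong with GCN5 and PCAF in SAGA and ATAC complexes.

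The bromodomain genes Brd2, at 120 and 85.3 coding-scaled TPM, and Brd1, at 40.7 and 40.2, were detected, and Brd3 was not. Of 30 further enzymes of the same families, 19 were detected with a median of 24.0 ± 0.973. The highest were demethylases, Kdm7a at 228 and 247, Kdm5c at 132 and 151 and Kdm6a at 130 and 131. Kdm6a removes the same Polycomb mark as Kdm6b, and in each library it stood far above Kdm6b. Hdac6, Sirt4, Kat6b, Kmt2a, Setd7, Setdb2, Kdm1b, Kdm4b, Kdm4c, Kdm8 and Phf2 were below the limit.

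Promoters of 37 of the 46 genes were found in the RefSeq table for GRCm38.p6. Hdac1, Hdac3, Hdac10, Kat6a, Setd1b, Nsd1, Kdm2a, Kdm5a and Kdm6b were not among them. The 250 bases before the first listed start of each gene were searched on both strands, and other starts were not. Their median GC content was 59.6%, with a median of 15 CpG pairs, against 52% and 6 for 27025 promoters. The GC box GGGCGG was present in 59.5% of them, against 32.9% of all promoters, and the Krüppel-like factor word CCNCNCCC, which can overlap a GC box, in 62.2% against 45.6%. A GATA word (AGATAA, also with T as its first or G as its last base, or both) was present in 16.2%, against 27.1%, CCAAT in 45.9% against 34.5% and the E2F word GCGGGAA in 5.41% against 3.84%. The 6 genes with a GATA word were Ezh2, Kdm4a, Setdb1, Sirt2, Kat2a and Hdac7. The 27025 promoters were not matched to these genes for GC content or expression. The part of GC content in the differences in word frequency was not tested. Such matches describe the sequence and do not show binding.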

How the data were processed

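For each of the 2 libraries of 1 group, a gene table and a transcript table were used. The assembly is mm10 per the labels, with annotation from GENCODE release M4 per the deposited text records. The sources used here do not give the aligner or the quantifier. The columns used are expected counts, TPM, each transcript's percent of gene TPM, and scores (posterior SDs of counts and credibility bounds of TPM), all made by the authors, per the file headers. No values were pooled. Symbols, classes and coordinates came from GENCODE M21, matched by identifier without version.

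From these, coding-scaled TPM, transcript shares, pair ratios and ratios between libraries were computed. Ratios used expected counts after rounding, with TMM factors (edgeR 4.0.16, R 4.3.3), with Clopper-Pearson 95% intervals. Other steps used matplotlib 3.10.9, scipy 1.17.1, pandas 2.3.3 and numpy 2.4.6 in Python 3.11.15, and the ratio step was tested on simulated data. DESeq2 1.42.0 size factors were an alternative. Without molecular identifiers, intervals and floors cover counting error only. The posterior SD of the count was 0 in both libraries for 40 of the 46 genes.

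The genes and lists were chosen with earlier results of these data known. Values per library are given for the highest and lowest gene of each family, the 10 pairs, genes 2-fold apart, genes below the detection limit and genes led by a transcript that is not coding, and for the top 3 of each partner list. A few genes of the partner lists are not reported here. Exonic bases were shared with another gene by 21 of the 46 genes, for 17 of them on the opposite strand. All exonic overlaps were taken from release M21. Whether the same bases are shared in release M4, the annotation of the counts, was not checked.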

Additional observations from a re-analysis of the deposited data

How the results depend on the processing

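The count of detected genes was 25, against 40 with a limit of 1 coding-scaled TPM and 42 with at least 10 counts in both libraries, and 26 to 29 with 1 library alone. The median level of 20.0 became 31.1 with adult globins left out of the scaling, 1.78 in deposited TPM, 16.6 with protein-coding transcripts only and 17.3 by counts per base of the longest transcript. It was 18.2 to 21.9 with 1 library alone. The acetyltransferase over deacetylase ratio became 1.76 with posterior mean TPM and 2.13 by counts per base of the longest transcript, and was 1.83 to 1.93 with 1 library alone. Genes 2-fold apart numbered 6 of 39 by deposited TPM, where 29.6% of coding genes were, 6 of 39 by coding-scaled TPM, where 12.6% were, and 7 of 45 without the count minimum, where 20.3% were. Hdac8 was no longer 2-fold apart by library size alone or by deposited TPM. The median ratio became 0.12 by library size alone, where the coding median was 0.19, and -0.13 by coding-scaled TPM. A leading transcript over 50% was found in 16 genes by share of counts and in 10 to 14 with 1 library alone. The noncoding share became 7.27% by share of counts, and was 20.05% to 25.5% with 1 library alone. The mean ratio of 3 pairs turned round: Setd1a/Setd1b at -0.18 by counts, Hdac1/Hdac2 at -0.16 with protein-coding transcripts only and Ehmt2/Ehmt1 at 0.0128 by counts per base of the longest transcript, the first and last of these over libraries of opposite sign. The cause was not tested. Kat2a/Kat2b gave no value with protein-coding transcripts only. The protein-coding restriction, the longest-transcript measure and the coding-scaled TPM count of 2-fold genes were chosen after seeing the data. That restriction also kept transcripts of no annotated class. No paired analysis was possible because the samples form 1 group.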
